A study of Homo sapiens with 8 samples.

Results

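HepG2 is a human hepatocellular carcinoma line that still expresses many genes of hepatocytes. The comparison described here is that of importin8 siRNA with control siRNA in HepG2 cells that had also received a control mimic. It was taken as the Read Count columns of the si-importin8-NC libraries against those of the NC libraries, which are 4 of the series' 8 RNA-seq libraries, and over every gene with enough counts, which were 17715 of the 26716 genes listed. NC cells had 30 nM of negative-control siRNA and 1 nM of negative-control mimic, and si-importin8-NC cells had 30 nM of importin8 siRNA and 1 nM of the same control mimic. The other 4 libraries came from cells given 1 nM of miR-552-3p mimic with control siRNA (miR-552-3p) or with importin8 siRNA (si-importin8-miR-552-3p). All cells were lysed 72 hours after transfection. No group was left untransfected, and each group had 2 libraries. The labels say that each group was done in 2 experiments and name no culture or passage, so the p-values measure the spread between these libraries, which may be technical. No source used here gives the sequence of the importin8 siRNA. The mimic-treated libraries were matched to table columns through short names in which the digit 5 was read as miR-552-3p.

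Importin 8, the product of IPO8, belongs to the importin-beta family of transport receptors. These receptors bind cargo proteins in the cytoplasm, carry them through the nuclear pore and release them inside the nucleus when they meet RanGTP. Importin 8 is known for carrying SMAD proteins of the TGF-beta and BMP pathways and for its part in the nuclear entry of Argonaute proteins with their bound microRNAs.

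The targeted transcript was lower in every siRNA library. IPO8 (Entrez gene 10526, minus strand of chromosome 12, GRCh38, 30628988 to 30695986) had 34.7 and 33.3 CPM (counts scaled to the effective library size) in the NC libraries and 11.3 and 11.5 in the si-importin8-NC libraries. The groups did not overlap, as for 73.5% of all genes tested, and the mean fell to 33.6% of NC, a log2 fold change of -1.57 ± 0.08 (SE) with an adjusted p of 4.5e-07. All adjusted p-values are from edgeR's quasi-likelihood test with Benjamini-Hochberg adjustment over the 17715 genes, and "rose", "fell" and "called" stand for an adjusted p under 0.05. In mimic-treated cells IPO8 had 25.4 and 24.6 CPM with control siRNA and 7.65 and 8.3 with importin8 siRNA, a log2 difference of -1.65. The siRNA effects on IPO8 in both arms differed by -0.07 on the log2 scale (adjusted p = 0.70), which did not pass the test. Further values are given as both NC libraries against both si-importin8-NC libraries, in CPM, with the log2 fold change in brackets.

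Depth was even, at 21608563 to 22102373 estimated counts per library. Between 22031 and 22503 genes had a count in each of the 4 libraries compared. Replicates differed by more than sampling noise, with a chi-square per degree of freedom of 9.80 between the NC libraries and 5.01 between the si-importin8-NC libraries. Every value of the comparison rests on both NC libraries, and these stood apart from the other groups for some genes. The same siRNA effect in mimic-treated cells (si-importin8-miR-552-3p minus miR-552-3p), which sets other libraries against each other, is therefore given beside each gene list as the count in the mimic arm. Both effects come from 1 fit of all 8 libraries, with a shared filter, scaling and estimate of the spread. The counts in the mimic arm thus also depend on the NC and si-importin8-NC libraries and are not independent of the comparison. Where leaving out any 1 of the 8 libraries moved such a count by over 1.5 times, the lowest and highest count so obtained follow it in brackets. Of the 44 lists, leaving out either miR-552-3p library moved 16 and 13, either si-importin8-miR-552-3p library 16 and 17, either NC library 10 and 8 and either si-importin8-NC library 1 each. In bulk RNA a smaller number of cells of one kind and less RNA per cell cannot be told apart. Hepatocyte and HepG2 markers were detected in every library: AFP, the fetal liver protein, had 9512 and 7500.2 CPM in NC against 12695 and 12096 in si-importin8-NC, and the transcription factor HNF4A had 255 and 259.8 against 309.6 and 317. These markers went both ways: of 9 listed, 6 rose and 3 fell, against 25.4% and 21.6% of all genes tested. Their summed level was 44666 to 51665 CPM in NC and 45963 to 48199 in si-importin8-NC. In the mimic arm 6 rose and 0 fell with all 8 libraries in the fit.

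The comparison called 8329 genes, which is 47.0% of all genes tested. Of these, 4497 rose (25.4% of all tested) and 3832 fell (21.6%). With upper quartile normalization the balance was the other way, with 3915 higher and 4400 lower, so the split between rises and falls depends on the scaling. Most shifts were small: 5836 of the called genes changed by less than 2-fold, while 1006 rose (5.68%) and 1487 fell (8.39%) by at least 2-fold, and with upper quartile normalization 867 and 1653 did. The median log2 fold change over all genes was -0.002. Protein-coding genes were called higher in 28.4% of 15161 tested and lower in 22.1%. Long noncoding RNAs were called higher in 7.42% of 2196 tested and lower in 18.2%, and pseudogenes in 9.24% and 23.5% of 357. In the mimic arm 5934 genes were called (33.5%), 3069 of them higher (17.3%) and 2865 lower (16.2%). Called genes of both arms numbered 3973. Among them 2970 moved in the same direction (1768 up, 9.98% of all genes tested, and 1202 down, 6.79%), 550 rose with control mimic and fell with miR-552-3p mimic, and 453 did the reverse. Over all genes tested the log2 effects in both arms had a Pearson r of 0.21 and a Spearman rho of 0.28, given as a description since genes are not independent. Counts of list members are read against these shares, 25.4% higher and 21.6% lower with control mimic and 17.3% and 16.2% in the mimic arm. A direct test of the difference between both siRNA effects called 5551 genes (31.3%).

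**Figure D1:**
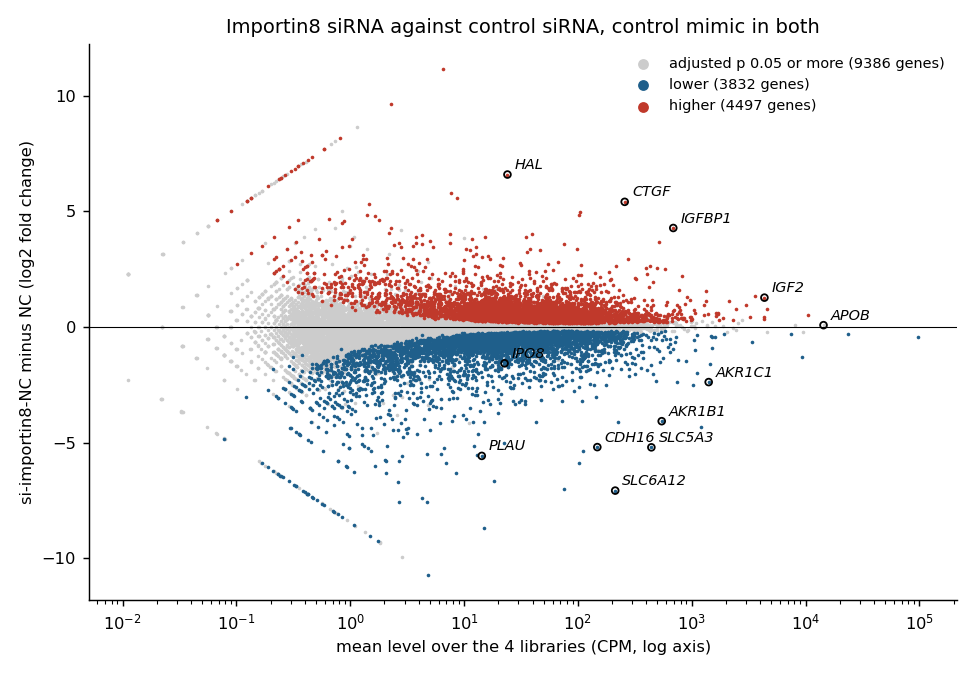
Log2 fold change of each tested gene (si-importin8-NC minus NC, vertical axis) against its mean level over the 4 libraries compared in CPM (horizontal axis, log scale), coloured by call. The 4497 genes that rose and the 3832 that fell lie mostly within 2-fold of no change, and the slanted lines at low levels are genes with no count in one group; 13 genes with no count in any of the 4 libraries are not drawn.

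The 14 largest rises included HAL and ADH4, which encode liver enzymes, and CTGF, ANKRD1 and CYR61 of the list of YAP and TEAD targets. HAL, histidine ammonia-lyase of histidine breakdown, had 0.585 and 0.394 CPM in NC against 50.0 and 45.3 in si-importin8-NC. ADH4, a liver alcohol dehydrogenase, had 0.45 and 0.263 against 18 and 16.1. Both were near the limit of detection in NC and well above it in both siRNA libraries, with log2 fold changes of 6.59 ± 0.15 (SE, adjusted p = 3.5e-09) and 5.56 ± 0.19 (adjusted p = 3.3e-08). CTGF, a secreted matricellular protein, went from 14.9 and 8.72 CPM in NC to 534 and 474, 5.41 ± 0.21 on the log2 scale (adjusted p = 1.5e-06). IGFBP1, an insulin-repressed binding protein for insulin-like growth factors, had 91.9 and 43 CPM in NC against 1417 and 1204 in si-importin8-NC, and its NC libraries lay more than 2-fold apart while both siRNA libraries were far above them (4.28 ± 0.37, adjusted p = 2.8e-04, and 4.92 without the first NC library). The other genes among the 14 largest rises were LEAP2, HSPA6, TCIM, ANKRD1, TDGF1, SLC16A6, CYR61, HAMP, CYP7A1 and F13B, with log2 fold changes from 3.7 for F13B to 5.78 for HSPA6 apart from LEAP2, which had no count in NC. TDGF1 encodes Cripto, a co-receptor for Nodal, and had 4.86 and 4.29 CPM in NC against 75.4 and 74.5 in si-importin8-NC. SLC16A6, a monocarboxylate transporter, had 0.72 and 1.01 against 15.8 and 12.3, and TCIM, a small regulator of Wnt signalling, had 8.28 and 4.95 against 212 and 196. In all 14 genes both siRNA libraries were above both NC libraries, as the ranking required; 73.5% of all genes tested had no overlap between the groups in either direction.

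In this ranking the 14 largest falls were of genes that NC cells expressed and that si-importin8-NC cells had at no more than 6.1 CPM. SLC6A12, the betaine transporter, had 426 and 419 CPM in NC against 3.09 and 3.19 in si-importin8-NC (-7.07 ± 0.11, adjusted p = 4.6e-10). RANBP3L, a Ran-binding protein that exports SMADs from the nucleus, had 147 and 151 against 0.673 and 1.62 (-7.02 ± 0.19, adjusted p = 3.4e-08, and -7.77 without the second si-importin8-NC library). ETNPPL, which breaks down phosphoethanolamine, had 202 and 197 against 3.27 and 3.42. HID1, a protein of secretory granule biogenesis, had 222 and 215 against 6.1 and 4.54. These 4 genes were abundant in both NC libraries and low in both siRNA libraries, and they were low in all 4 mimic-treated libraries too, at no more than 12.1 CPM. PTGS1, the constitutive cyclooxygenase, had 32.4 and 40.9 CPM in NC against 0.314 and 0.405 with the siRNA. PLAU, the urokinase plasminogen activator, had 26.1 and 30.0 against 0.359 and 0.809 (-5.57 ± 0.24, adjusted p = 1.2e-07, and -6.26 without the second si-importin8-NC library). PLAU was also expressed with the mimic alone, at 10.2 and 10.1 CPM, and fell there with the siRNA to 1.54 and 1.19 (-2.89, adjusted p = 8.6e-06). The remaining largest falls were HIST2H2BE, GLP2R, SLC4A3, SLC7A10, AQP6, ELF5, MYLK4 and SOX7. MYLK4, a myosin light chain kinase, had the largest adjusted p of the 14, with 9.54 and 9.07 CPM in NC against 0.404 and 0 with the siRNA (adjusted p = 0.012), and without the second NC library its adjusted p was 0.052.

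A few genes had at most 3 counts in both libraries of one group and at least 5 CPM in both of the other. LEAP2 (chromosome 5, plus strand, 132872322 to 132875046), which encodes a liver peptide that antagonizes the ghrelin receptor, was the only such gene that came on. It had 0 and 0 CPM in NC against 13.1 and 12.8 in si-importin8-NC, at least 97.1-fold higher against a floor of 3 counts per library (adjusted p = 4.0e-04). With miR-552-3p mimic it had 0 and 0 CPM without the siRNA and 17.5 and 9.01 with it. HIST2H2BE (chromosome 1, minus strand, 149884459 to 149886652), a histone H2B gene, was the reverse: 9.9 and 9.29 CPM in NC and 11 and 13.7 with the mimic, and no count in any of the 4 siRNA libraries, at least 71.2-fold lower in si-importin8-NC (adjusted p = 1.1e-06). Histone genes have near-identical copies among which the estimation can split reads, so the value of a single histone gene is uncertain. No other annotated gene overlaps LEAP2 or HIST2H2BE in GENCODE, while GLP2R overlaps the pseudogene NPM1P45 on the opposite strand. GLP2R, the receptor for glucagon-like peptide 2, had 28.9 and 30.9 CPM in NC against 0.0449 and 0.0899, a ratio of 444 with a 95% counting interval of 152 to 2156. GSTT4, a glutathione transferase, had 5.63 and 5.08 against 0 and 0.045, a ratio of 238 (42.4 to 9451), and SLC52A3, a riboflavin transporter, 5.18 and 5.3 against 0 and 0.0899, a ratio of 117 (31.9 to 969). These intervals cover counting error only. GLP2R, GSTT4 and SLC52A3 were also at or near 0 in all 4 mimic-treated libraries, at no more than 0.144 CPM.

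**Figure D2:**
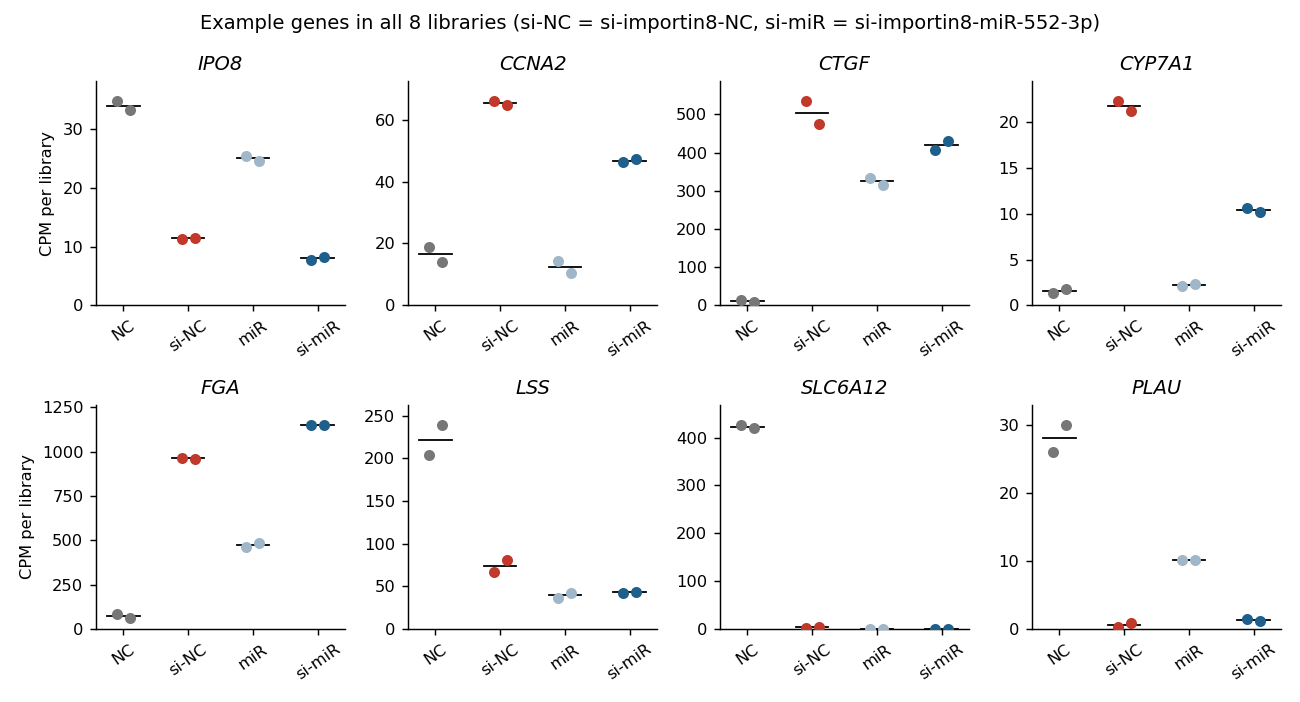
CPM of 8 genes in each of the 8 libraries (points) with the mean of each group (bar); the vertical axis starts at 0 in every panel. IPO8 and PLAU were lower and CCNA2 and CYP7A1 higher with the siRNA in both arms, while SLC6A12 was high in the NC libraries alone and CTGF low in them alone.

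Genes of the nuclear transport machinery itself mostly rose with control mimic. Of 29 karyopherins and Ran cycle genes, 22 rose and 2 fell, against 25.4% and 21.6% of all genes, with a median log2 fold change of 0.36 against -0.002 over all genes. Besides IPO8 the member that fell was IPO13, an importin with export cargoes too (-0.55, adjusted p = 0.0012), which was not called in the mimic arm (-0.15, adjusted p = 0.29). CSE1L, the exportin that returns importin-alpha to the cytoplasm, had 164 and 152 CPM in NC against 352 and 333 in si-importin8-NC (1.12 ± 0.07, adjusted p = 1.1e-06). IPO5, another importin-beta family receptor, had 249 and 214 against 412 and 391 (0.79, adjusted p = 4.2e-05). Both siRNA libraries were above both NC libraries for each, while 73.5% of all genes tested had no overlap in either direction. IPO7, the closest relative of importin 8, had 447 and 411 CPM in NC against 533 and 500.3 with the siRNA, a small rise (0.27, adjusted p = 0.016) that did not pass the test without the first si-importin8-NC library (adjusted p = 0.12). KPNB1, importin-beta itself, rose by 0.38 (adjusted p = 0.0020) and KPNA2, an importin-alpha, by 0.64 (adjusted p = 1.2e-04). In the mimic arm 10 rose (4 to 12) and 4 fell, and all 10 were among the 22. The median there was 0.08. The test of the difference between both siRNA effects called 13 of the 29, all with a lower effect with the mimic.

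The channel these receptors pass through also had more genes higher than lower. Of 28 nucleoporin genes, 23 rose and 1 fell, with a median of 0.45, and in the mimic arm 19 rose (12 to 20) and 2 fell, with 16 higher in both arms. NUP155, a scaffold nucleoporin, had 24.5 and 23.3 CPM in NC against 54.1 and 51.4 in si-importin8-NC (1.14 ± 0.07, adjusted p = 1.1e-06). NUP35 rose by 1.04, NUP93 by 0.89 and NUP160 by 0.86 on the log2 scale, with no overlap between groups, as for 73.5% of all genes tested. NUP205, a partner of NUP93 in the inner ring, was the member that fell, from 119.8 and 121 CPM to 67.4 and 66.3 (-0.85 ± 0.07, adjusted p = 6.5e-06), and in the mimic arm it rose by 0.27 (adjusted p = 0.018).

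Of 18 Argonaute and microRNA machinery genes, 5 rose, 6 fell and 7 were not called, with a median of 0.02 (-0.05 with upper quartile normalization), and in the mimic arm 6 rose (2 to 6) and 3 fell (0 to 3). Over all genes 25.4% rose and 21.6% fell, with a median of -0.002. The rises and the median of the list were near these values, and its falls were somewhat above them. AGO2, the slicing Argonaute, had 41.7 and 39.5 CPM in NC against 46.8 and 42.9 with the siRNA (0.14, adjusted p = 0.19), and AGO1 had 41.9 and 46.9 against 42.6 and 43.3 (-0.05, adjusted p = 0.72). DROSHA, the nuclear RNase that starts microRNA maturation, rose from 36.9 and 37.8 to 58.4 and 57.3 (0.63 ± 0.06, adjusted p = 2.3e-05) and also in the mimic arm (0.44). DICER1, the cytoplasmic RNase of the pathway, fell (-0.46, adjusted p = 9.9e-04) but rose in the mimic arm (0.28, adjusted p = 0.026). TNRC6B, the Argonaute partner in silencing, fell in both arms (-0.59 and -0.36).

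Of 24 SMAD and TGF-beta or BMP response genes tested, 13 rose and 3 fell, with a median of 0.48, and in the mimic arm 9 rose (5 to 10) and 6 fell (3 to 7). Among the SMADs, SMAD1 of the BMP branch had 5.81 and 5.7 CPM in NC against 16.6 and 15.2 in si-importin8-NC (1.47 ± 0.12, adjusted p = 6.6e-06) and also rose in the mimic arm (0.5). SMAD3 of the TGF-beta branch rose by 0.56 and the shared SMAD4 by 0.36, and both fell in the mimic arm (-0.23 and -0.23). SMAD2 was not called (0.15, adjusted p = 0.074), though it was without the first NC library (adjusted p = 0.024). Among the BMP response genes, ID1 had 76.4 and 64.9 CPM in NC against 196 and 243 with the siRNA (1.64, adjusted p = 7.3e-06), and ID3 had 13 and 10.3 against 59.7 and 66 (2.43, adjusted p = 1.8e-07). HAMP, which encodes hepcidin, the liver hormone that limits iron uptake, had 2.84 and 1.05 CPM in NC against 29.4 and 27.5 in si-importin8-NC (3.87 ± 0.32, adjusted p = 9.8e-05). Its NC libraries lay more than 2-fold apart, and without the first of them the log2 fold change was 4.74. ID1 and HAMP also rose in the mimic arm, by 0.59 and 0.98, while ID3 changed there by 0.18 (adjusted p = 0.20). LTBP2, a matrix protein of the latent TGF-beta binding family, fell in both arms, from 3.96 and 3.68 CPM to 1.53 and 0.944 with control mimic (-1.62) and also with miR-552-3p mimic (-1.64).

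Genes of cell division had the highest share of rises among the lists described. Of 27 G2/M and mitosis genes, 26 rose and none fell, against 25.4% and 21.6% of all genes, with a median log2 fold change of 1.04. All 27 rose in the mimic arm, with a median of 1.07. CCNA2, the cyclin of S and G2 phase, had 18.9 and 14.1 CPM in NC against 65.9 and 64.9 in si-importin8-NC (1.99 ± 0.15, adjusted p = 1.7e-05). Both siRNA libraries were above 3 times both NC libraries, and in mimic-treated cells the values were 14.4 and 10.5 without and 46.4 and 47.2 with the siRNA. CDK1, the kinase that drives mitosis, had 16.3 and 14.5 against 58.1 and 49.4 (1.8, adjusted p = 9.8e-06). Of its activating cyclins, CCNB1 had 34.6 and 28.9 against 68.2 and 67.4 (1.09) and CCNB2 had 19.5 and 16.7 against 49.5 and 49.7 (1.45). The spindle checkpoint kinases TTK and BUB1 rose by 1.56 and 1.24, and the phosphatase CDC25C by 1.28. MKI67, the proliferation marker, had 95.8 and 113 CPM in NC against 153 and 172 with the siRNA, the smallest rise of those named (0.64 ± 0.1, adjusted p = 5.5e-04). The summed level of the 27 genes was 1118 to 1202 CPM in NC and 2094 to 2118 CPM in si-importin8-NC. No cell counts or cycle phases are part of the files, so more dividing cells and more RNA per dividing cell cannot be told apart.

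Genes of G1/S and DNA replication followed less evenly. Of 28, 19 rose, 1 fell and 8 were not called, with a median of 0.68, and in the mimic arm 20 rose and 1 fell, with 15 higher in both arms; without either si-importin8-NC library no member was called lower. RRM2, the regulated subunit of ribonucleotide reductase, had 51.8 and 45.2 CPM in NC against 140.4 and 134 in si-importin8-NC (1.5 ± 0.08, adjusted p = 3.5e-07). MCM7, a subunit of the replicative helicase, had 56.7 and 49 against 115 and 108 (1.08), and the clamp loader subunit RFC3 had 17.9 and 17.3 against 41.5 and 39.3 (1.2). The groups did not overlap for these 3 genes, as for 73.5% of all genes tested. E2F1, the transcription factor of S phase entry, rose by 0.64 with control mimic and by 1.8 with miR-552-3p mimic, where its level without the siRNA was 8.06 and 7.49 CPM against 41.2 and 40.1 in NC.

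Many G2/M genes carry a cell cycle homology region (CHR) in the promoter, a short element through which the DREAM complex holds them off in resting cells. Promoters were taken from RefSeq (GRCh38.p14) as the 250 bases before the annotated start, and 21 of the 27 G2/M genes had an entry. The CHR motif TTTGAA, on either strand, was present in 10 of these 21 (47.6%), in 1 of 22 G1/S promoters (4.55%), in 9.35% of the 12682 tested genes with an entry and in 13.6% of all 27305 promoters. A CCAAT box, the element that often lies near a CHR, was present in 17 of the 21 (81.0%) against 34.4% of the tested genes. Among all genes that rose in both arms, 12.4% of 1424 promoters held TTTGAA, and among those that fell in both arms 7.77% of 927 did. The list was chosen as G2/M genes, which often carry this element, so its share is no result of the siRNA. The promoters of CCNA2, CCNB1, BUB1 and CDC25C, which rose in both arms, did not hold TTTGAA. A match is a description of the letters and not evidence of a bound site. The promoters of CCNB2 (chr15:59104896-59105145, plus strand), CDK1 (chr10:60778081-60778330, plus strand) and CDC20 (chr1:43358731-43358980, plus strand) are shown because these genes rose in both arms and hold the motif, which is in capitals, as TTCAAA where it lies on the opposite strand. The motif starts 29 bases before the annotated start in CCNB2, 161 in CDK1, and 178 and 65 in CDC20.
CCNB2: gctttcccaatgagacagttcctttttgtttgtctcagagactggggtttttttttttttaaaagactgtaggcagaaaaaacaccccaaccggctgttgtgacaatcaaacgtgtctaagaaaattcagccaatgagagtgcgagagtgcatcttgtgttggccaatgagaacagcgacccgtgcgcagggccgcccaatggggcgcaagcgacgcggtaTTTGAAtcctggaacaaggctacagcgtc
CDK1: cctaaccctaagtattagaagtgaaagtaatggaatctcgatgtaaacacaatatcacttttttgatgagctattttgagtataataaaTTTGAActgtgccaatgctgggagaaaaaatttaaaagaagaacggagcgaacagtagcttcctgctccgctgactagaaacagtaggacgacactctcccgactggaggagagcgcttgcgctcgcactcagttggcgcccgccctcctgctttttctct
CDC20: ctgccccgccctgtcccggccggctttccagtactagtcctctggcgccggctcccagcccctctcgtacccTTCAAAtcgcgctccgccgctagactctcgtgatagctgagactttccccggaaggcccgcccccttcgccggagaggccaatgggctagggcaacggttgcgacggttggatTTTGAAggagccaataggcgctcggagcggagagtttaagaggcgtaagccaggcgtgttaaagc

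CDC20, the activator of the anaphase-promoting complex, is not in the set of genes named by rule and was added for its promoter after its values were seen. It had 22.7 and 22.4 CPM in NC and 46.6 and 39.8 in si-importin8-NC (0.94, adjusted p = 1.4e-05), and its effect in the mimic arm was 0.53 (adjusted p = 0.0011).

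**Figure D3:**
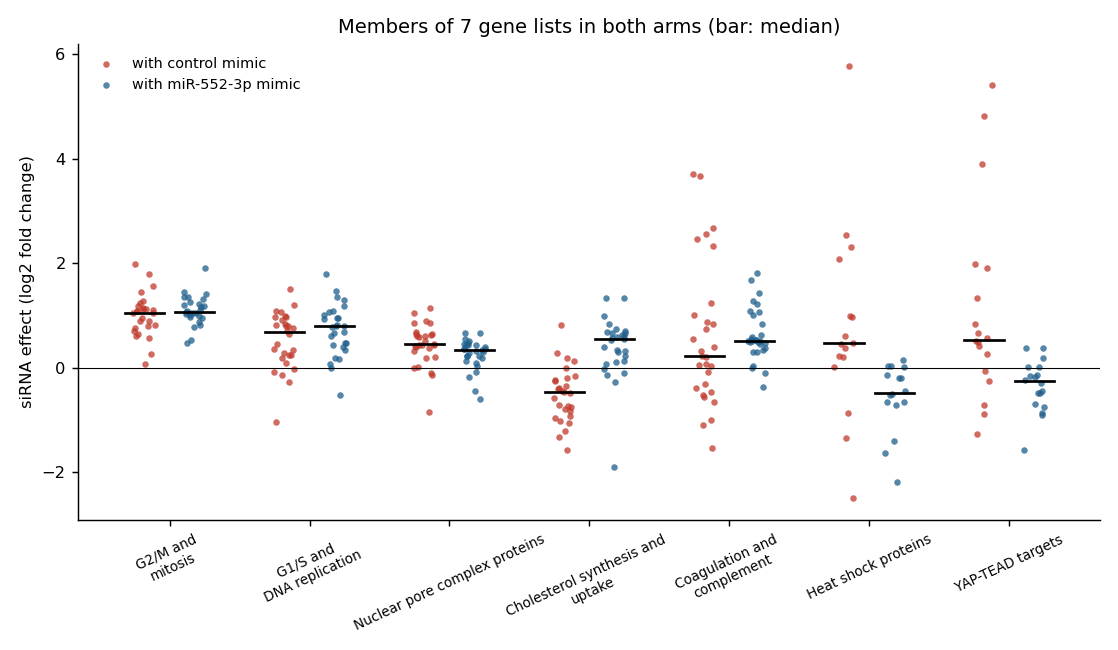
Log2 siRNA effect of each tested member of 7 gene lists with control mimic (red, left of each pair) and with miR-552-3p mimic (blue, right of each pair); bars mark medians. G2/M genes have medians of 1.04 and 1.07, while cholesterol genes have -0.48 and 0.54 and heat shock genes 0.47 and -0.48.

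Among histone genes more fell than rose. Of 24 tested genes with HIST symbols, a list added after the values were seen, 12 fell and 1 rose, with a median of -1.66, and in the mimic arm none rose and 9 fell, all 9 among the 12; the 1 rise was lost when any 1 of the 4 libraries compared was left out. HIST1H3H had 29.4 and 29.1 CPM in NC against 3.41 and 3.24 in si-importin8-NC (-3.14 ± 0.12, adjusted p = 7.5e-08). HIST1H2BD had 14.8 and 13.3 against 1.97 and 2.02 (-2.81, adjusted p = 4.3e-07) and fell in the mimic arm from 8.61 and 9.09 to 2.84 and 2.61. The sum of the list was 156 to 158 CPM in NC and 43.9 to 44.4 CPM in si-importin8-NC. The libraries were made from RNA selected on oligo(dT), and most histone transcripts of S phase have no poly(A) tail, so these values count only the polyadenylated part of histone mRNA.

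Targets of the transcription factors YAP and TEAD, which respond to cell contact and tension, were 3 of the 14 largest rises. The list of 18 genes holds 14 targets and the factors themselves, which were separated after the values were seen, as were those of NRF2. Of the 14 targets 9 rose and 3 fell, with a median of 0.75, whereas in the mimic arm 1 rose (1 to 2) and 6 fell (4 to 6), with a median of -0.39. Of the factors, YAP1 (0.26) and TEAD4 (0.50) rose, TEAD1 fell (-0.88) and WWTR1 was not called (-0.07, adjusted p = 0.52), so that over all 18 genes 11 rose and 4 fell, and in the mimic arm 1 rose (1 to 2) and 8 fell (4 to 8). ANKRD1 had 8.19 and 5.92 CPM in NC against 211 and 187 in si-importin8-NC (4.82 ± 0.13, adjusted p = 1.6e-08). CYR61, a matricellular protein like CTGF, had 4.95 and 3.86 against 72.9 and 57.6 (3.89 ± 0.16, adjusted p = 3.0e-07). Both were higher still with miR-552-3p mimic and control siRNA, at 771 and 742 CPM for ANKRD1 and 246 and 219 for CYR61, and fell there with the siRNA, ANKRD1 to 479 and 452 CPM and CYR61 to 124 and 124 CPM. F3, tissue factor, rose from 5.45 and 4.25 CPM to 19.4 and 17 (1.91), and the receptor kinase AXL from 3.38 and 3.59 to 9.6 and 8.09 (1.34). The difference between both siRNA effects passed the test for CTGF (-5.05, adjusted p = 1.4e-05), ANKRD1 (-5.52, adjusted p = 8.9e-08) and CYR61 (-4.8, adjusted p = 1.0e-06).

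The TEAD motif GGAATG, on either strand, was present in 6 of 13 promoters of the list (46.2%), that of YAP1 among them, against 9.67% of tested genes and 11.9% of all promoters. The list was chosen as targets of YAP and TEAD, so its share is no result of the siRNA. Among all genes that rose in both arms, 9.06% of 1424 promoters held GGAATG, and among those that fell in both arms 11.3% of 927 did. The promoters of F3 and AXL, which rose with control mimic, did not hold it. The promoters of CTGF (chr6:131951373-131951622, minus strand) and ANKRD1 (chr10:90921088-90921337, minus strand) are shown, read in the direction of the gene, because they belong to the largest rises and hold the motif more than once, at 169, 104 and 95 bases before the annotated start in CTGF and at 220 and 128 in ANKRD1. CYR61 had no entry.
CTGF: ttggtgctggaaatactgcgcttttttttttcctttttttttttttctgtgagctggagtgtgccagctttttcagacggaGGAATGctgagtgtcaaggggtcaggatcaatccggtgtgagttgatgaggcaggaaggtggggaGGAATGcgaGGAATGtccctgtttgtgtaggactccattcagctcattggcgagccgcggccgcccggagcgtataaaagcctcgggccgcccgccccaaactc
ANKRD1: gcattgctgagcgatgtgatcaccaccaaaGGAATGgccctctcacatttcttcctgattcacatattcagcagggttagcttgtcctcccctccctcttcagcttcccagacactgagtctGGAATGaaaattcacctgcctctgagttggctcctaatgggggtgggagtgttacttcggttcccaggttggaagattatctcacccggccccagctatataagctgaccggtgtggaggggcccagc

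With control mimic, genes of the actin cytoskeleton and of epithelial junctions more often rose than fell, and in the mimic arm more often fell. Of 25 actin cytoskeleton genes 13 rose and 3 fell, with a median of 0.48, while in the mimic arm 2 rose (1 to 2) and 17 fell. ACTB, cytoplasmic beta-actin, had 2171 and 1978 CPM in NC against 4090.3 and 3864 in si-importin8-NC (0.94 ± 0.09, adjusted p = 1.6e-05), and CALD1, caldesmon, 105 and 93.8 against 231 and 232 (1.22). TAGLN, a marker of smooth muscle and of SRF activity, had 0.36 and 0.745 CPM in NC, 4.53 and 2.88 with the siRNA, 116 and 109 with the mimic and 21.5 and 22.8 with both. It thus rose in one arm (2.73) and fell in the other (-2.34), and without the second NC library the rise was 3.34. Of 23 keratin and junction genes 12 rose and 3 fell, and in the mimic arm 3 rose and 12 fell. CDH1, E-cadherin, had 3.74 and 3.07 CPM in NC against 30.8 and 27.3 in si-importin8-NC (3.09 ± 0.12, adjusted p = 6.7e-08) and rose in the mimic arm too (1.05). CLDN1, a tight junction claudin, had 40.1 and 37.3 against 159 and 148 (1.99). CDH16, the kidney-type cadherin, went the other way, from 274 and 303 CPM in NC to 7.0 and 8.81 (-5.19 ± 0.11, adjusted p = 2.5e-09), with 1.51 and 1.84 without and 1.97 and 1.66 with the siRNA CPM in the mimic arm. Of 22 matrix, integrin and protease genes 6 rose and 9 fell, with a median of -0.18, and in the mimic arm none rose and 16 fell. LAMA3, a laminin chain, fell from 21.2 and 19.9 to 2.92 and 2.61 (-2.89) and ITGAV, integrin alpha-V, from 186 and 185 to 98.6 and 95.7 (-0.93), both also in the mimic arm (-1.02 and -0.65).

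Of 16 heat shock genes, the regulator HSF1 included, 11 rose and 3 fell, with a median of 0.47, and their summed level went from 5033 to 5604 CPM in NC to 8503 to 9004 in si-importin8-NC. HSPA1A and HSPA1B, the inducible Hsp70 pair, are near-identical genes whose reads can be split between them. HSPA1A had 147 and 128 CPM in NC against 725 and 633 with the siRNA (2.3 ± 0.11, adjusted p = 1.8e-07), and HSPA1B 125 and 108 against 717 and 636 (2.54). HSPA6, an Hsp70 made under strong stress only, had 0.225 and 0.307 against 17 and 12.9 (5.78, adjusted p = 2.0e-06), and the cochaperone DNAJB1 134 and 112 against 561 and 479.5 (2.08). All 4 were lowest in the NC libraries and highest with miR-552-3p mimic and control siRNA, where HSPA1A had 2492 and 2191 CPM. In the mimic arm no heat shock gene rose and 9 of 16 fell. CRYAB and HSPB8, which encode small heat shock proteins, fell in both arms: CRYAB went from 18.4 and 16.3 to 3.32 and 2.79 CPM (-2.5) with control mimic and from 69 and 58.5 to 18.6 and 22.2 (-1.64) with miR-552-3p mimic.

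The integrated stress response, in which cells answer amino acid shortage or other insults through ATF4, had 17 of 22 genes higher and 2 lower, with a median of 0.90; without the second si-importin8-NC library none was called lower, and without the first NC library 1 was. ATF4 mRNA itself was not called (370.1 and 332 CPM in NC, 357 and 344 in si-importin8-NC, 0.00, adjusted p = 0.99), and ATF4 is known to be set mainly by translation. PPP1R15A, a phosphatase subunit that ends the response, had 42.5 and 27.5 against 181 and 149 (2.24 ± 0.2, adjusted p = 1.5e-04). DDIT3, which encodes CHOP, had 34.7 and 30.1 against 79.5 and 71.9 (1.22), and ASNS, asparagine synthetase, 38.3 and 34 against 81.4 and 66.2 (1.03). In the mimic arm 2 rose (1 to 4) and 10 fell, with DDIT3 at 213 and 187 CPM without and 132 and 138 with the siRNA. Of 20 unfolded protein response genes 8 rose and 2 fell, with a median of 0.11, and in the mimic arm 2 rose (2 to 4) and 6 fell (3 to 7); with control mimic and without the second si-importin8-NC library 1 was lower. HSPA5, the main chaperone of the endoplasmic reticulum, was not called (129 and 106 against 135 and 117 CPM, 0.1, adjusted p = 0.57).

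SLC6A12, among the 14 largest falls, belongs to the osmotic response. Cells in concentrated medium take up or make organic osmolytes through a set of genes controlled by the transcription factor NFAT5. Of 10 genes, NFAT5 among them, a list added after the values were seen, 5 fell and 2 rose, with a median of -0.87, and in the mimic arm 1 rose (0 to 2) and 5 fell. With control mimic 1 rose without any single library other than the first of NC and with upper quartile normalization. SLC5A3, the myo-inositol transporter, had 918 and 805 CPM in NC against 21.5 and 25.3 in si-importin8-NC (-5.2 ± 0.12, adjusted p = 3.5e-09). AKR1B1, aldose reductase, which makes sorbitol, had 1020.4 and 1038 against 62.8 and 60.0 (-4.07 ± 0.09, adjusted p = 2.5e-09). The NC libraries were far above every other library for both genes: with miR-552-3p mimic and control siRNA SLC5A3 was at 42.8 and 49.3 CPM and AKR1B1 at 82.4 and 76.9. SLC6A6, the taurine transporter, had 69.5 and 68.3 against 20.9 and 24.3 CPM with control mimic and 60.9 and 64.9 against 21.9 and 20.4 with miR-552-3p mimic. It fell in both arms (-1.61 and -1.57). NFAT5 itself was not called (-0.13, adjusted p = 0.24).

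**Figure D4:**
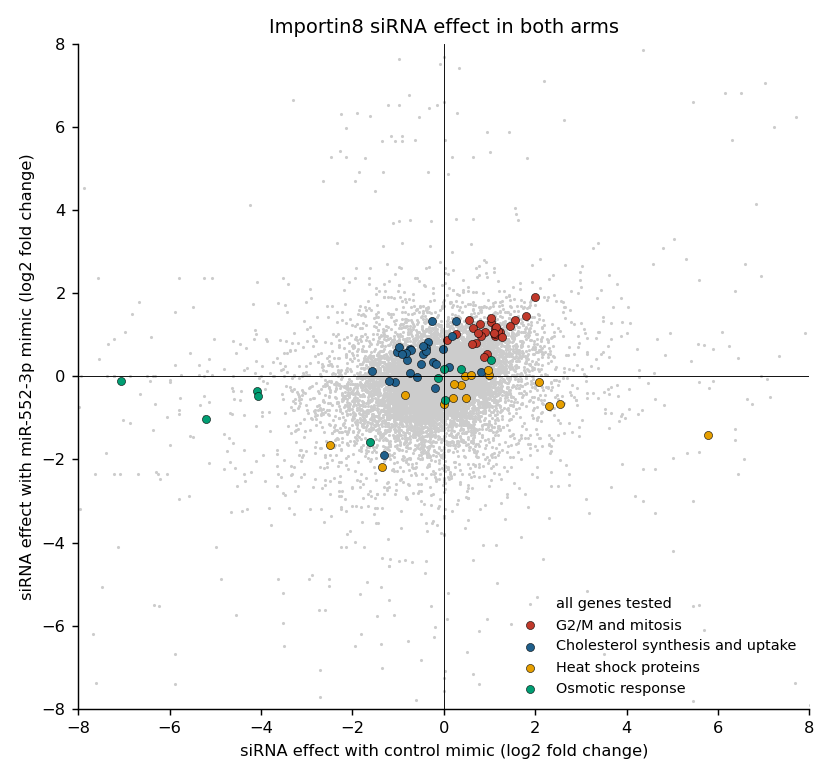
Log2 siRNA effect with control mimic (horizontal axis) and with miR-552-3p mimic (vertical axis) for all genes tested (grey) and 4 gene lists; 25 genes beyond 8 log2 units are not drawn. G2/M genes lie in the upper right in both arms, most cholesterol genes to the left of 0 and above it, and the osmotic genes SLC6A12, SLC5A3, AKR1B1 and SLC4A11 far to the left, between -1.02 and -0.11 on the vertical axis.

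With control mimic, genes of sterol synthesis mostly fell. SREBP2 drives these genes when cell cholesterol is low. Of 28 cholesterol synthesis and uptake genes 19 fell and 2 rose, with a median of -0.48, whereas in the mimic arm 18 rose and none fell, with a median of 0.54. LSS, lanosterol synthase, had 204 and 239 CPM in NC against 67.2 and 81.3 in si-importin8-NC (-1.58 ± 0.11, adjusted p = 7.4e-06). HMGCS1, which makes the HMG-CoA used in the pathway, had 224 and 216 against 93.9 and 96.4 (-1.21, adjusted p = 3.3e-07). The NC libraries were the highest of all groups for both genes, and with miR-552-3p mimic and control siRNA LSS was at 36.6 and 42.7 CPM and HMGCS1 at 78.9 and 73 CPM. SQLE, squalene epoxidase, fell (-0.71) and rose in the mimic arm (0.63), and the regulator SREBF2 fell (-0.58) and was not called in the mimic arm (-0.02, adjusted p = 0.82).

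Fatty acid and triglyceride synthesis had 11 of 17 genes lower and 4 higher (median -0.43) and in the mimic arm 12 rose and 2 fell (1 to 3). FASN, fatty acid synthase, had 682 and 841 CPM in NC against 505 and 561 with the siRNA (-0.51 ± 0.1, adjusted p = 0.0026). SCD, stearoyl-CoA desaturase, had 1713 and 1743 against 1309 and 1259.9 (-0.43, adjusted p = 0.0012). Both rose in the mimic arm (0.73 and 0.64), and the difference between both siRNA effects passed the test for each (adjusted p = 1.9e-04 and 6.5e-05). SREBF1, the regulator of this pathway, rose in both arms (0.36, adjusted p = 0.0059, and 0.39). LPIN1, a phosphatidate phosphatase, fell in both, from 44.1 and 47.4 CPM to 20.2 and 18.8 with control mimic (-1.23), and AGPAT2, which acylates lysophosphatidate, rose in both, from 8.73 and 8.11 to 30.1 and 25 (1.71). PLIN2, the lipid droplet coat protein, had 633 and 389 against 1002 and 977 (0.95 ± 0.2, adjusted p = 0.0064), with a wide gap between the NC libraries. Of 21 fatty acid oxidation genes 8 rose and 4 fell, and in the mimic arm 12 rose and none fell. CPT1A, the gate of mitochondrial fatty acid entry, had 39 and 43.3 CPM in NC against 116 and 111 in si-importin8-NC (1.46 ± 0.07, adjusted p = 1.8e-07), and rose in the mimic arm (1.7). SLC25A20, the carnitine carrier, fell from 22.7 and 25.4 to 7.04 and 6.61 (-1.82).

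The series is titled for FXR and LXR, nuclear receptors for bile acids and oxysterols. NR1H4, which encodes FXR, had 73.3 and 74.7 CPM in NC against 84.7 and 77.1 in si-importin8-NC and was not called (0.13 ± 0.07, adjusted p = 0.14). In the mimic arm NR1H4 went from 27.6 and 27.5 to 70.3 and 66.2 (1.31, adjusted p = 1.4e-06), and the difference passed the test (adjusted p = 1.6e-05). NR0B2, which encodes SHP, the repressor that FXR induces, had 138 and 123 against 316 and 318 (1.28 ± 0.07, adjusted p = 5.0e-07) and rose in the mimic arm by 1.81. SLC51A, a subunit of the basolateral bile acid exporter, had 19 and 15 CPM in NC against 122 and 112 (2.79 ± 0.1, adjusted p = 6.7e-08), with 20.1 and 18.3 without and 78.7 and 80.2 with the siRNA in the mimic arm. Over the list of FXR, SHP and FXR targets 7 of 19 rose and 5 fell, and 3 fell without either si-importin8-NC library; in the mimic arm 10 rose and 4 fell (1 to 4). The shares over all genes are 25.4% and 21.6%.

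CYP7A1, the hydroxylase that commits cholesterol to bile acids, had 1.31 and 1.8 CPM in NC against 22.3 and 21.2 in si-importin8-NC (3.8 ± 0.16, adjusted p = 1.1e-07). It rose in the mimic arm too, from 2.11 and 2.36 to 10.6 and 10.2 (2.22), by less than with control mimic (difference -1.58, adjusted p = 5.9e-04). CYP7A1 was thus higher in all 4 siRNA libraries than in any of the other 4. AKR1D1, the reductase of the sterol ring, rose from 12.4 and 12.4 to 47.5 and 47.2 (1.93) and by 2.27 in the mimic arm. CYP8B1, which sets the share of cholic acid, was not called (3.87 and 4.6 against 5.65 and 6.56, 0.53, adjusted p = 0.082), though limma-voom called it. KLB, the co-receptor through which FGF19 represses CYP7A1, fell from 436 and 448 CPM to 121 and 129.7 (-1.82 ± 0.06, adjusted p = 3.4e-08), and was at 23.9 and 24.4 with the mimic alone and 43.4 and 43.6 with both. Of 13 bile acid synthesis genes tested 7 rose and 3 fell, against 25.4% and 21.6% of all genes, and in the mimic arm 7 rose and 2 fell (1 to 2).

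Among the LXR genes, NR1H3 (LXR-alpha) had 21 and 20.6 CPM in NC against 26.4 and 26.3 (0.34 ± 0.07, adjusted p = 0.0039), a call that DESeq2 did not make, and NR1H2 (LXR-beta) had 17.5 and 17 against 17.4 and 17 (0.00, adjusted p = 0.99). ABCA1, the cholesterol exporter induced by LXR, had 67.3 and 76.2 against 152 and 161 (1.12 ± 0.09, adjusted p = 5.2e-06). Its change in the mimic arm was 0.17 (adjusted p = 0.18), and the difference passed the test (adjusted p = 2.9e-04). Of 15 LXR genes tested 7 rose and 2 fell, and without any single library except the second of NC and of si-importin8-NC 1 fell; in the mimic arm 5 rose (3 to 5) and 2 fell (1 to 2).

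Secreted liver proteins went both ways with control mimic, while more of them rose than fell in the mimic arm. Of 24 plasma protein genes tested 12 rose and 9 fell, against 25.4% and 21.6% of all genes, and 4 or 5 fell without the first or the second si-importin8-NC library; in the mimic arm 16 rose and 1 fell (0 to 1), against 17.3% and 16.2%. Of 29 coagulation and complement genes 15 rose and 8 fell, and in the mimic arm 22 rose and 1 fell. The 3 fibrinogen chains, which assemble into the clotting protein, all rose. FGA had 86.9 and 64.7 CPM in NC against 965 and 959 in si-importin8-NC (3.67 ± 0.13, adjusted p = 5.4e-08). FGB had 34.1 and 23.6 against 185 and 184 (2.68) and FGG 162 and 126 against 863 and 819.9 (2.55). All 3 also rose in the mimic arm (1.28, 0.51 and 1.09), from higher starting levels. ORM1, an acute phase glycoprotein, rose from 70.1 and 52.7 to 317 and 318 (2.37), and complement C5 from 52.9 and 40.0 to 238 and 229.7 (2.33). SERPINA3, antichymotrypsin, fell from 1870.0 and 1642 CPM to 320.4 and 305 (-2.49 ± 0.09, adjusted p = 5.8e-08), and hemopexin (HPX) from 19.4 and 23.1 to 5.11 and 5.67 (-1.98). C3, the central complement protein, fell from 4214 and 4112 to 2655 and 2614 (-0.66) and rose in the mimic arm (0.29).

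Of 19 apolipoprotein and lipoprotein assembly genes tested 9 rose and 4 fell, against 25.4% and 21.6% of all genes, and in the mimic arm 12 rose and 1 fell (0 to 1). APOM, the carrier of sphingosine 1-phosphate, rose in both arms, from 68.9 and 55.8 CPM to 184 and 178 with control mimic (1.54) and from 37.9 and 32.1 to 128 and 125 with miR-552-3p mimic (1.86). APOA2 rose from 887 and 793 to 1797 and 1835 (1.11), while APOA1, the other main protein of HDL, fell from 1952 and 1746 to 1391 and 1367 (-0.42, adjusted p = 0.0021). APOB, the structural protein of LDL, was not called (13289 and 14667 against 14591 and 15029, 0.08, adjusted p = 0.64). TTR, the carrier of thyroid hormone and retinol-binding protein, rose from 323 and 232 to 648 and 607 (1.18) and in the mimic arm by 2.29.

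Of 22 hepatocyte transcription factor genes 10 rose and 6 fell, against 25.4% and 21.6% of all genes, and in the mimic arm 9 rose and 3 fell. CEBPA, which holds the mature hepatocyte state, rose in both arms (0.52 and 1.28). NR5A2, a nuclear receptor that activates bile acid synthesis genes, fell from 48.2 and 44.8 CPM to 8.12 and 8.23 (-2.51 ± 0.09, adjusted p = 4.7e-08), and GATA4 from 154 and 171 to 61.9 and 64.4 (-1.36). Both were also lower with the mimic alone, NR5A2 at 5.31 and 5.23 CPM and GATA4 at 33.9 and 31.9 CPM.

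For drug metabolism 12 of 23 genes tested rose and 5 fell, against 25.4% and 21.6% of all genes, and in the mimic arm 12 rose and 1 fell. GSTA1, a glutathione transferase of the liver, rose in both arms, from 5.45 and 6.49 to 37 and 38.1 CPM (2.65) and from 1.88 and 1.41 to 11 and 10.2 (2.69). CYP3A5 and CYP3A7, members of a gene family with similar sequences, fell from 48.3 and 52.7 to 5.02 and 5.04 (-3.33) and from 23.6 and 21.9 to 1.21 and 1.39 (-4.12). Of 22 amino acid catabolism genes tested 12 rose and 4 fell, and in the mimic arm 10 rose and 2 fell (1 to 2). BHMT, which remethylates homocysteine with betaine, had 8.19 and 7.84 against 34.9 and 29.3 (2.0, adjusted p = 6.1e-07) and rose in the mimic arm (1.72). KYNU, of tryptophan breakdown, rose from 23.8 and 20.1 to 68.1 and 62.8 (1.58) and fell in the mimic arm (-1.63).

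With control mimic, genes of glucose handling more often rose than fell. Of 25 glycolysis and glucose uptake genes 13 rose and 2 fell, with 4 lower without the second NC library and 1 without the first si-importin8-NC library, and in the mimic arm 3 rose (3 to 6) and 4 fell. SLC2A2, the glucose transporter of hepatocytes, had 4.23 and 3.68 CPM in NC against 29.8 and 30.4 in si-importin8-NC (2.93 ± 0.11, adjusted p = 6.3e-08) and rose in the mimic arm (0.96). Hexokinase 2 (HK2) had 142 and 95.1 against 540.0 and 488 (2.12), and hexokinase 1 (HK1) 17.8 and 12.5 against 3.27 and 2.56 (-2.37 ± 0.19, adjusted p = 6.7e-06). HK1 thus fell, as it did in the mimic arm (-1.89) and HK2 was not called there (0.18, adjusted p = 0.44). Of 11 gluconeogenesis genes tested 6 rose and 3 fell, and in the mimic arm 8 rose and 1 fell. PCK1, the committed enzyme of gluconeogenesis, rose in both arms, from 74.6 and 56.7 to 144 and 123 (1.02, adjusted p = 7.8e-04) and by 1.3. G6PC, which releases free glucose, had 8.01 and 6.31 against 4.71 and 4.81 (-0.59 ± 0.2, adjusted p = 0.033). That call was lost without the first NC library (adjusted p = 0.23), without either si-importin8-NC library (0.14 and 0.12), with DESeq2 (0.23) and with no filter on low counts (0.055). FOXO1, the insulin-restrained activator of gluconeogenic genes, rose from 28.2 and 25.7 to 91 and 85.6 (1.71) and by 0.74 in the mimic arm. Of 16 insulin and IGF signalling genes tested 6 rose and 4 fell, against 25.4% and 21.6% of all genes, and in the mimic arm 3 rose and 4 fell (2 to 4). IGF2, the fetal growth factor, was among the most abundant of the genes named, with 2419 and 2676 CPM in NC against 6008 and 6319 in si-importin8-NC (1.27 ± 0.09, adjusted p = 3.7e-06), and rose in the mimic arm (1.16). INSR, the insulin receptor, was not called (-0.03, adjusted p = 0.77), and IGF1R fell from 149 and 214 to 58.6 and 72.6 (-1.47, adjusted p = 0.0065).

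Of 24 AP-1, EGF ligand and ERK feedback genes tested 11 rose and 5 fell, and in the mimic arm 5 rose (3 to 5) and 9 fell. EGFR had 169 and 174 CPM in NC against 38.6 and 37.7 in si-importin8-NC (-2.17 ± 0.07, adjusted p = 3.4e-08), and its ligand TGFA 76.7 and 69.2 against 26.5 and 26 (-1.47). PHLDA1, an immediate early gene, had 169 and 157 against 42.9 and 45.3 (-1.88). EGFR, TGFA and PHLDA1 fell in the mimic arm too (-1.32, -0.32 and -2.06). JUN, an AP-1 subunit, rose from 109 and 79 to 285 and 256 (1.53), and DUSP5, a phosphatase of ERK, from 4.19 and 2.72 to 24.3 and 18.3 (2.63). AREG, an EGFR ligand, had 1.4 and 1.4 CPM in NC, 3.86 and 2.83 with the siRNA, 152 and 131 with the mimic and 26.5 and 24.2 with both. Of 23 p53 target genes 8 rose and 9 fell, with a median of -0.10, while in the mimic arm none rose (0 to 1) and 15 fell, with a median of -0.39, and 6 fell in both arms. CDKN1A, the cell cycle inhibitor p21, was not called (98.5 and 91.7 against 102 and 86.6, -0.01, adjusted p = 0.93) and fell in the mimic arm from 366 and 329.6 to 149.7 and 144 (-1.24). GDF15, a stress-induced hormone, rose from 417 and 359 to 1240.5 and 1103 (1.59).

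Of 23 interferon-stimulated genes tested 9 fell and 3 rose, with 5 lower without the second NC or the second si-importin8-NC library, and in the mimic arm 3 rose (1 to 2) and 7 fell. IFI6 had 40.0 and 34.6 CPM in NC against 5.52 and 4.63 in si-importin8-NC (-2.88 ± 0.13, adjusted p = 1.7e-07). IRF9, the DNA-binding part of the interferon-activated complex ISGF3, had 23.3 and 23 against 9.15 and 6.61 (-1.55) and fell in the mimic arm (-1.25), while its partner STAT2 rose (0.62 and 0.3). DDX58, which encodes the RNA sensor RIG-I, fell from 41.3 and 41.5 to 15.3 and 14.3 (-1.48). NFKBIA, the NF-kB inhibitor, fell from 461 and 436 to 149.6 and 153 (-1.57), while the chemokine CXCL8 rose from 5.67 and 4.38 to 14.3 and 12.4 (1.41) and fell in the mimic arm (-1.67). Of 16 chemokine and NF-kB genes tested 8 rose and 3 fell, with 5 higher without the first si-importin8-NC library, and in the mimic arm 4 rose (1 to 4) and 5 fell (3 to 6). LCN2, a siderophore-binding protein, fell in both arms (-4.42 and -3.23).

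NRF2 is a transcription factor of antioxidant defence that KEAP1 holds back. Of 18 NRF2 target genes tested 7 rose and 5 fell, and in the mimic arm none rose and 15 fell. NFE2L2, which encodes NRF2, rose (0.61) and KEAP1 fell (-0.70), and neither was called in the mimic arm (adjusted p = 0.12 and 0.27). AKR1C1, a ketosteroid reductase of this group, had 2592 and 2141 CPM in NC against 437 and 471 in si-importin8-NC (-2.38 ± 0.1, adjusted p = 1.4e-07) and fell in the mimic arm, from 2034 and 1988 to 669 and 712. It shares sequence with its AKR1C relatives, which makes the division of reads uncertain. NQO1, a quinone reductase, fell in both arms (-0.57 and -0.47), and HIF1A, the hypoxia factor, did so as well, from 431 and 414 to 176 and 168 (-1.3) and in the mimic arm (-0.68). Of 16 genes of the hypoxia list, HIF1A included, 9 rose and 2 fell (6 without the second NC library), and in the mimic arm 3 rose (1 to 4) and 2 fell (1 to 7). LOX, a collagen cross-linking oxidase, rose in both arms (2.62 and 1.79).

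Genes called in the same direction in both arms were also ranked by the smaller of both effects, a rule added after the values were seen, so the ranking is a description. Among those higher in both arms were LEAP2, HAL, CYP7A1, GSTA1 and HSD17B2, an estradiol-oxidizing enzyme with 6.17 and 3.77 CPM in NC, 39.3 and 38.9 in si-importin8-NC, 8.51 and 7.63 with the mimic and 47.5 and 44.6 with both. MIXL1, a mesendoderm homeobox factor, had 69.4 and 58.6, 494 and 485, 35.3 and 33.4 without and 133 and 142 with the siRNA in the same order. Among those lower in both arms were HIST2H2BE, PLAU and UCA1, a long noncoding RNA with 28.1 and 24.8 CPM in NC, 2.15 and 3.37 in si-importin8-NC, 14.1 and 22.4 with the mimic and 2.4 and 2.99 with both. GDNF, a neurotrophic factor, had 11.2 and 7.14, 0.852 and 1.12, 10.6 and 11.6 without and 1.63 and 1.9 with the siRNA. S100A6, a calcium-binding protein, had 32.3 and 29.5, 5.29 and 4.86, 109 and 95.3 without and 16.5 and 16.8 with the siRNA, and CFL2, an actin-severing cofilin, 128 and 109, 26.8 and 26.7, 313 and 285 without and 30.7 and 32 with the siRNA. For each of these 6 genes the siRNA libraries of an arm lay on one side of that arm's control libraries without overlap. The ranking required this in both arms, so it adds no support. The siRNA effects in both arms differed by -0.01 for S100A6 (adjusted p = 0.96), -0.47 for HSD17B2 (adjusted p = 0.17), 0.56 for GDNF (adjusted p = 0.29) and 0.5 for UCA1 (adjusted p = 0.42), none of which passed the test, while CFL2 (-1.11, adjusted p = 1.1e-04) and MIXL1 (-0.93, adjusted p = 2.9e-04) did pass it.

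Of 32 cytosolic ribosomal protein genes, the core of the ribosome, 13 rose and none fell, with a median of 0.27, and the count was 5 without the first si-importin8-NC library, 29 without the first NC library and 21 with DESeq2. Of 26 respiratory chain subunit genes 8 rose and none fell, with a median of 0.13 (5 rose without the first si-importin8-NC library). In the mimic arm 1 rose (0 to 2) and none fell (0 to 7) of the ribosomal genes, and 9 rose (3 to 9) and 2 fell (0 to 3) of the respiratory genes. Of 14 Wnt pathway and target genes tested 2 rose and 6 fell (3 without the second si-importin8-NC library), and in the mimic arm 4 rose and 1 fell. Of 14 metallothionein and zinc transporter genes tested 3 rose and 4 fell, which is near the 25.4% and 21.6% of all genes and no result about the members, and in the mimic arm 6 rose and none fell.

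Markers of other cell types were mixed in direction. Of 9 fibroblast markers listed, 8 were in the deposited counts and 3 passed the filter on counts. The summed level of those 8 was 12.9 to 19.9 CPM in NC and 9.17 to 9.96 in si-importin8-NC. DCN, LUM, COL3A1, THY1 and FAP, which define fibroblasts, had too few counts. COL1A1, a collagen chain, rose (2.79, adjusted p = 7.1e-05) and PDGFRB fell (-1.18, adjusted p = 5.9e-04), and in the mimic arm none rose (0 to 1) and none fell. Of 9 endothelial and blood cell markers listed, 8 were in the deposited counts and 6 were tested, of which 2 rose and 2 fell. The summed level of those 8 was 82.0 to 89.5 CPM in NC, most of it from PECAM1, and 78.7 to 102 in si-importin8-NC. In the mimic arm 1 rose and 2 fell. CDH5, the endothelial cadherin, had 0.09 and 0.0438 CPM in NC against 2.96 and 2.79 in si-importin8-NC (adjusted p = 1.7e-05), so that it was near 0 in NC and low with the siRNA. PECAM1 went from 68.6 and 72.4 to 16.5 and 14.3 (-2.19) and VWF from 6.57 and 8.68 to 1.88 and 2.2, while the macrophage and lysosome marker CD68 went from 5.27 and 8.06 to 79 and 58.7 (3.37). PTPRC, which marks blood cells, had too few counts to be tested. Of 8 cholangiocyte and progenitor markers listed, 7 were in the deposited counts and 6 were tested, of which 2 rose and 2 fell. The summed level of those 7 was 903 to 962 CPM in NC and 704 to 711 in si-importin8-NC. In the mimic arm none rose and 4 fell. KRT19, a keratin of bile ducts, went from 35.3 and 27.3 to 68.6 and 66.3 CPM (1.11) and SOX9, a transcription factor of ducts and progenitors, from 384 and 410.1 to 170.3 and 189 (-1.14). The cholangiocyte keratin KRT7 had too few counts to be tested. The part of these markers in the other results was not tested.

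**Figure D5:**
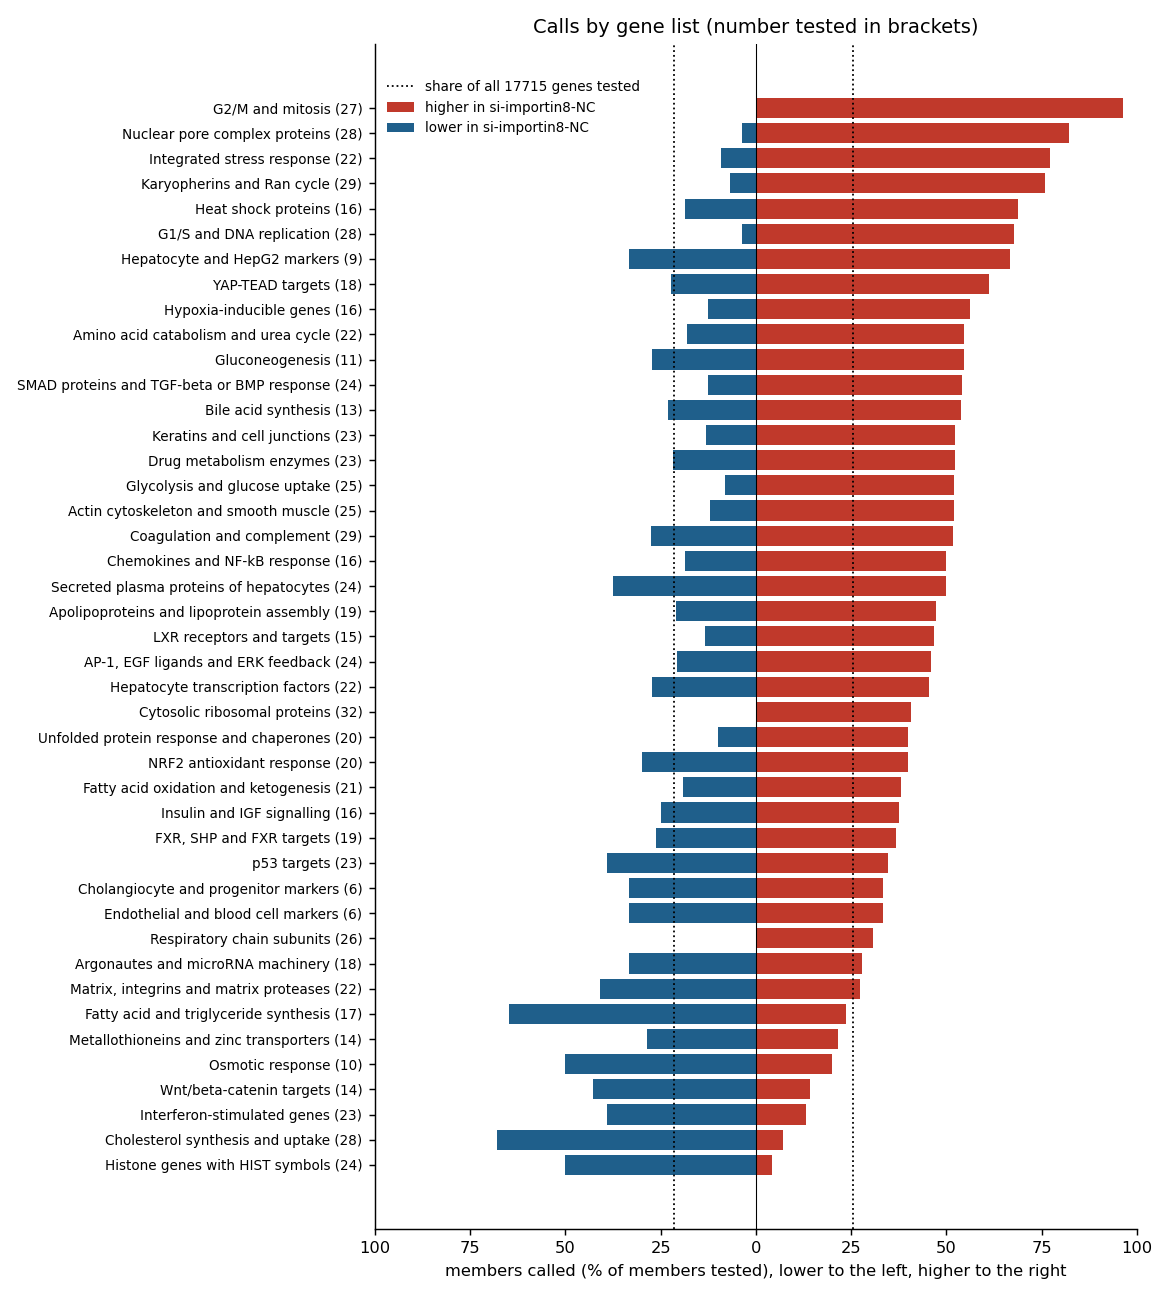
Share of the tested members of each gene list with at least 6 members tested that rose (red, to the right) or fell (blue, to the left) in si-importin8-NC against NC at an adjusted p under 0.05, in percent; dotted lines mark the shares over all 17715 genes, 25.4% higher and 21.6% lower. G2/M genes, nucleoporins, stress response genes and karyopherins lie farthest beyond the line for rises, and fatty acid and cholesterol synthesis beyond that for falls.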

How the data were processed

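Poly(A) RNA was sequenced as single-end reads of 50 bases. Per the submitters' processing notes, the tools were HISAT2 2.0.4, Bowtie2 2.2.5 and RSEM 1.2.8 with build GRCh38.p12. The authors deposited estimated counts and FPKM values per gene, and the counts were rounded here to whole numbers. Columns were matched to samples by name; the names of the mimic-treated columns are abbreviated and their reading is not spelled out in the labels. All 8 libraries entered 1 fit in edgeR 4.0.16 (R 4.3.3) with its filter on low counts, TMM factors and the robust quasi-likelihood test, called at a Benjamini-Hochberg adjusted p under 0.05. The fit was also run on simulated counts, drawn with its own estimates of the spread, in which few genes changed. That run cannot vouch for the scaling or the calls in a comparison that called 47.0% of genes. Named genes were the target, the 14 largest rises and falls with a mean of at least 100 counts and no overlap, on/off genes, up to 6 called members of each list and genes of bile acid and lipid control; others are named as added. The members and lists were chosen with earlier results of these data known. Alternatives were DESeq2 1.42.0, limma-voom 3.58.1, other normalizations, filters and thresholds, a replicate block and leaving out each library. Promoters and their coordinates are from RefSeq (GRCh38.p14); gene coordinates are from GENCODE.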

Additional observations from a re-analysis of the deposited data

Results flagged for a closer look

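A difference between the siRNA effects in both arms, tested within 1 fit with edgeR's quasi-likelihood test, brought each of the following to notice. The difference is the effect with miR-552-3p mimic minus the effect with control mimic, on the log2 scale, and it was called for 5551 genes.

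Among the largest rises with a called difference the effect was smaller or opposite with miR-552-3p mimic. The difference was not called for LEAP2 among the largest rises or for HIST2H2BE among the largest falls. The difference was -3.88 for HAL, -7.19 for HSPA6, -4.8 for ADH4, -5.05 for CTGF, -3.9 for TCIM, -5.52 for ANKRD1, -4.12 for IGFBP1, -2.38 for TDGF1, -2.97 for SLC16A6, -4.8 for CYR61, -2.9 for HAMP, -1.58 for CYP7A1 and -2.03 for F13B. Among the largest falls it was 9.1 for GLP2R, 6.96 for SLC6A12, 5.96 for RANBP3L, 6.22 for PTGS1, 5.66 for SLC4A3, 6.17 for ETNPPL, 7.44 for SLC7A10, 2.68 for PLAU, 6.11 for AQP6, 4.04 for ELF5, 7.16 for MYLK4, 5.63 for HID1 and 4.76 for SOX7. For the genes of bile acid and lipid control it was 1.18 for NR1H4, 0.53 for NR0B2, 1.24 for FASN, 1.07 for SCD, -0.96 for ABCA1 and 1.54 for G6PC. The ranked genes were chosen for a large effect with control mimic, so a smaller effect in the other arm is favoured by that choice and their count supports nothing. The difference for MYLK4 had an adjusted p of 0.043, which became 0.34 without the first si-importin8-miR-552-3p library, 0.11 without the second NC library, 0.096 without the first, 0.083 and 0.052 without the second and the first miR-552-3p library and 0.055 without the second si-importin8-NC library. The difference for G6PC had an adjusted p of 0.052 with DESeq2. Without the first NC library the difference was -3.76 for HAMP and -4.75 for IGFBP1, and without the second si-importin8-NC library 6.73 for RANBP3L and 3.37 for PLAU. It was 6.12 for SLC6A12 without the first si-importin8-miR-552-3p library, 4.13 for SOX7 without the second and 6.48 for SLC4A3 without the second miR-552-3p library. That for AQP6 had 0.0037, and 0.085 without the second si-importin8-miR-552-3p library. For genes with few counts in the mimic-treated libraries, such as GLP2R, SLC7A10, AQP6 and MYLK4, the fitted difference depends on the prior count and is no bound.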

How the results depend on the processing

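Leaving out each library in turn gave 6427 to 8163 called genes against 8329, with 3506 to 4445 higher and 2921 to 3719 lower, and a log2 fold change of IPO8 of -1.60 to -1.56. With upper quartile normalization 3915 genes were higher and 4400 lower, which turned the balance of rises and falls. DESeq2 called 6543 genes, 3628 higher and 2915 lower, and an adjusted p under 0.01 in the main fit left 6197. Over the lists and alternative fits, 124 list medians moved by more than the SD of that median between replicates, and 624 did not. The genes called in opposite directions in both arms numbered 656 to 1077 against 1003, with 656 when the second library of si-importin8-miR-552-3p was left out and 661 with DESeq2. At an adjusted p under 0.01 there were 522 such genes and 1900 called in the same direction. That threshold left 1883 genes lower in the mimic arm and 3501 in the difference, 1594 of them higher and 1907 lower. Deviations of same-numbered libraries correlated at 0.00 to 0.09 over all genes tested, so no broad pairing by replicate number was seen. Whether same-numbered libraries share an effect on some genes was not tested. With a replicate block 8496 genes were called, 4613 higher and 3883 lower, and IPO8 was at -1.57. Genes that did not pass the test changed sign when 1 library was left out, with ranges of -0.02 to 0.02 for NR1H2, -0.14 to 0.04 for AGO1, -0.13 to 0.11 for CDKN1A, -0.08 to 0.07 for ATF4, -0.03 to 0.24 for HSPA5 and -0.07 to 0.01 for INSR. The cause was not tested. With 2 libraries a group, small changes near the threshold are the least secure.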
